A study of Mus musculus with 12 samples.

Results

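Restoration of SMAD4 was examined in mouse intestinal tumor organoids that grew directly on tissue culture plastic. All 6 plastic libraries of the series were used, of 12 libraries in all. Each library came from organoids of the genotype Smad4KO;BRAFV600E/+;pINDUCER-SMAD4, with small intestine given as the tissue. By this genotype, both arms had the endogenous Smad4 gene knocked out and carried the activated BRAF allele. Both also held the same lentiviral construct, from which doxycycline (dox) drives SMAD4. The induced arm received 4 µg/mL dox for 48 h (lines 560, 700 and 889), and the control arm was the same 3 lines without dox. Organoids had been derived from macroscopic tumors of Smad4f/f; BRAFV600E/+; Villin-CreERT2 mice, in which a Villin promoter limits tamoxifen-activated Cre to the intestinal epithelium. Lines were independent and were selected with puromycin after transduction, and the culture medium held EGF, R-spondin and Noggin, an inhibitor of BMP ligands. Organoids that carried no construct were not treated with dox on plastic in these libraries, so the effect of dox itself and the effect of SMAD4 cannot be told apart.

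Among 24906 genes in the table, the 12333 with a mean of at least 0.5 FPKM (fragments per kilobase of transcript, scaled to sequencing depth) over the 6 libraries were analysed. The change of a gene is the difference in log2(FPKM + 1), dox minus no dox, within a line, which understates the change of low genes. Genes with the same sign of change in all 3 lines were then described by what they are known to do, beyond the cell cycle.

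SMAD4 is the shared partner of the receptor-activated SMAD proteins. TGFβ and activin receptors phosphorylate SMAD2 and SMAD3, BMP receptors phosphorylate SMAD1, SMAD5 and SMAD8, and either set enters the nucleus with SMAD4 to bind DNA. In the intestinal epithelium BMP signals rise toward the differentiated compartment, and loss of SMAD4 is a frequent event in colorectal tumors. ID proteins, SMAD6 and SMAD7 are classic readouts, the first as BMP targets and the others as feedback inhibitors.

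The 6 libraries had an estimated depth of 15570000 to 20510000 scaled reads and 15723 to 16447 genes above 0. Intestinal epithelial markers were high in both arms, with a summed level of 14420 to 17340 FPKM without dox and 13870 to 18850 FPKM with dox. Summed fibroblast and muscle markers reached at most 9.6 FPKM in any library, and Lum and Thy1 were listed at 0 throughout. The skeletal muscle actin Acta1 was not in that list. It was at 62.6, 163 and 62.9 FPKM without dox and 153, 2517 and 191 FPKM with dox in lines 560, 700 and 889. The summed endothelial list was 2.77 to 12.3 FPKM without dox and 11.1 to 269 FPKM with dox, of which Sele was the main part, while the endothelial marker Emcn was listed at 0 in every library. Similarly, the immune list was 4.29 to 18.5 FPKM without dox and 201 to 442 FPKM with dox, mostly Fcer2a, with Cd3e, Cd3g, Cd4, Ms4a1, Adgre1, Ncr1 and Cpa3 at 0 in all 6 libraries. Cd68, a macrophage marker that is also a lysosomal protein, was at 15.1, 4.40 and 2.70 FPKM without dox and 12.5, 3.58 and 38.7 FPKM with dox in lines 560, 700 and 889. Mcpt1, a mast cell protease, was at 0, 0.860 and 0.108 FPKM without dox and 1.90, 2.32 and 1.21 FPKM with dox. Outside the immune list, other genes best known from immune cells were past 1 in all 3 pairs. Mcpt2, another mast cell protease, went from 0.117 to 14.4, 0 to 3.20 and 0 to 4.43 FPKM. Havcr2 went from 0.218 to 15.6, 0.305 to 3.03 and 0.536 to 76.7 FPKM. Prf1 was at most 0.0247 FPKM without dox and 1.74, 1.17 and 5.70 FPKM with dox. Tigit was lower, from 7.55 to 2.65, 41.9 to 13.3 and 14.3 to 4.94 FPKM. The part of such cells in the results was not tested.

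Line 560 stood apart in its relation to transcript length. Over 10768 genes with an annotated transcript length, the change in line 560 had a Spearman correlation of 0.51 with length across genes, against -0.09 in line 700 and -0.25 in line 889. Of 5 equal groups ordered by length, the one of shortest transcripts (median 1150 bases) had a median change of -0.49 in line 560 and the one of longest transcripts (6188 bases) a median change of 0.57. The same groups gave 0.02 and -0.07 in line 700, and 0.18 and -0.20 in line 889. As single libraries, the deviation of each gene from its mean over the 6 libraries had a Spearman correlation with length of -0.45 in untreated line 560 and of -0.07 to 0.32 in the other 5. Its part in the results was not tested. For part of the gene lists, counts are therefore also given over lines 700 and 889 alone, or after each library was centred within 50 bins of transcript length.

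**Figure D1:**
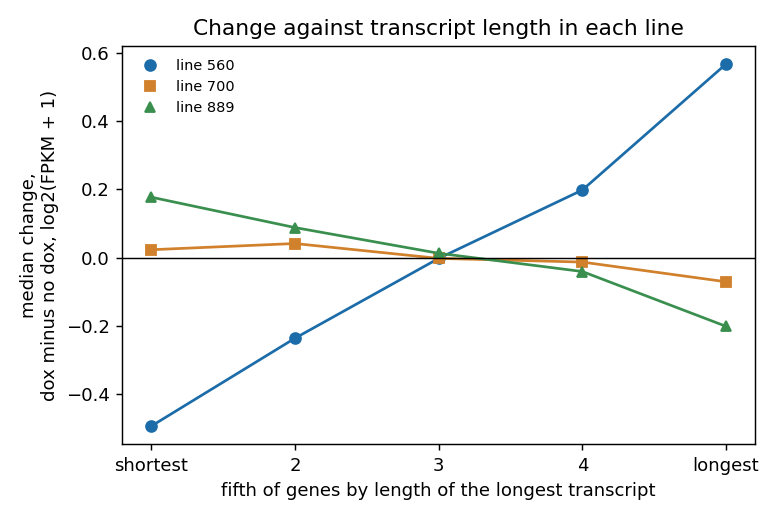
Median change, dox minus no dox, in log2(FPKM + 1) on the y axis, for 5 equal groups of genes ordered by the length of the longest annotated transcript on the x axis, with 1 line of points per organoid line. Line 560 climbs from -0.49 in the shortest group to 0.57 in the longest, line 700 runs from 0.02 to -0.07 and line 889 slopes from 0.18 down to -0.20.

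The product of the construct, Smad4, was higher with dox in every line. It was at 1.54 FPKM without and 73.6 FPKM with dox in line 560, a ratio of 47.8. In line 700 the values were 2.99 and 18.1 FPKM, a ratio of 6.08, and in line 889 they were 4.76 and 48.9 FPKM, a ratio of 10.3. All 3 dox libraries lay above all 3 untreated libraries, and line 700 had both the lowest induced level and the smallest change. An exact two-sided permutation test gave p = 0.1, the smallest that 3 against 3 libraries can give, and limma gave a change of 3.42 (SE 0.55, adjusted p 0.162). The locus of Smad4 is chr18:73798663-73863434 on NCBIM37. Mouse and human coding sequences are both possible inserts, so construct reads count here only as far as they were assigned to mouse Smad4.

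The number of genes with a change over 1 differed between the lines. In line 560, 1233 genes were over 1 higher and 588 over 1 lower with dox. The same counts were 488 and 483 in line 700, and 903 and 583 in line 889. Line 700 thus had the fewest such genes. Across genes, the pair changes of lines 700 and 889 had a Pearson correlation of 0.49, those of lines 560 and 889 0.29, and those of lines 560 and 700 0.19, as a description over the same 12333 genes. After centring by transcript length these were 0.50, 0.44 and 0.25.

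Limma called 4 genes at an adjusted p under 0.05 and a change over 1, which is 0.0324% of the genes tested. Fcer2a, Ly6m and Pax9 rose (0.0243%) and 2210011C24Rik fell (0.00811%). At an unadjusted p under 0.05 and a change over 1 there were 449 genes (3.64%), 292 higher (2.37%) and 157 lower (1.27%). Fcer2a encodes the low-affinity IgE receptor CD23 and lies on chromosome 8 from 3681737 to 3694174 (NCBIM37). Its level went from 1.72 to 425, 0.638 to 298 and 0.0981 to 159 FPKM in lines 560, 700 and 889, so its 3 changes (7.29, 7.51 and 7.19) were nearly equal. The limma change was 7.33 (SE 0.46, adjusted p 0.0105). B cells also carry CD23, and the B cell marker Ms4a1 was listed at 0 in all 6 libraries.

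Ly6m, a member of the Ly6 family of small lipid-anchored surface proteins, was at 2.17, 2.10 and 1.17 FPKM in untreated lines 560, 700 and 889 and at 322, 214 and 673 FPKM with dox. Its lowest dox library was far above its highest untreated library, and the change was 7.02 (SE 0.43, limma adjusted p 0.0105). Pax9, a paired-box transcription factor of foregut-derived endoderm on chromosome 12 from 57792754 to 57813809, was at 2.67, 3.59 and 1.81 FPKM without dox and 28.4, 25.6 and 39.5 FPKM with dox. The change of Pax9 was 3.13 (SE 0.27, limma adjusted p 0.0393). 2210011C24Rik, which RefSeq lists as Misp3, measured 27.0, 27.5 and 24.3 FPKM without dox and 2.91, 3.94 and 2.16 FPKM with dox. It lies on chromosome 8 from 86534129 to 86535341, and its change was -2.79 (SE 0.23, limma adjusted p 0.0336). The arms of all 4 genes did not overlap. Bulk libraries cannot tell fewer cells that express a gene from less RNA per cell.

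With the organoid line as a block, limma called 7 genes (0.0568%), 6 higher (0.0486%) and 1 lower (0.00811%). Fcer2a, Ly6m and 2210011C24Rik were among them, and Pax9 was not (adjusted p 0.0868). Antxr2, a receptor for anthrax toxin that binds matrix proteins, was at 34.6, 55.0 and 44.6 FPKM without dox and 246, 415 and 379 FPKM with dox, a change of 2.92 (blocked adjusted p 0.0353, 0.0645 without the block). Ldhd, the mitochondrial D-lactate dehydrogenase, went from 14.1 to 164, 7.17 to 67.5 and 12.0 to 92.6 FPKM, a change of 3.12 (blocked adjusted p 0.0353). Spsb1, a SOCS-box adaptor of a ubiquitin ligase, went from 0.731 to 11.3, 1.92 to 23.5 and 1.92 to 21.5 FPKM, a change of 2.95 (blocked adjusted p 0.0353). Gm7367, a pseudogene in RefSeq, was the seventh, at 2.57 (blocked adjusted p 0.0485). Each of Antxr2, Ldhd, Spsb1 and Gm7367 was higher in all 3 pairs by similar amounts, at 2.80 to 3.06 for Antxr2. Centred by transcript length, limma called 1 gene, Fcer2a. There the change of Pax9 was 3.09 (adjusted p 0.0821) and the change of 2210011C24Rik was -2.68 (adjusted p 0.137), while Ly6m had no annotated length and could not enter. Single libraries also decided the number of genes called with dox on plastic, which was 55 without dox line 700, 2 without dox line 889 and 0 without dox line 560 or without untreated line 560, 700 or 889.

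Promoter sequence was examined for the called genes, and for Id3 as a textbook BMP target. The reference table listed no start for Ly6m. The 250 bases before the first listed start of each gene are shown 5′ to 3′ on the gene's own strand, from RefSeq on GRCm38.p6, a later build than the gene positions given elsewhere. Capitals mark CAGAC or its reverse complement GTCTG, which hold the short SMAD box, and GGCGCC, the core of a GC-rich SMAD element. The 2 motifs share no overlap in these windows.
Fcer2a (GRCm38.p6 chr8:3694175-3694424, strand -): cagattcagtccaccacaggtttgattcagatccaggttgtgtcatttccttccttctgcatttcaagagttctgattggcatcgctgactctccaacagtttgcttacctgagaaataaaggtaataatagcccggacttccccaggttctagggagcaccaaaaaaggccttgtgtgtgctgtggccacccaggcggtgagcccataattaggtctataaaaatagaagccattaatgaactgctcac
Pax9 (GRCm38.p6 chr12:56695221-56695470, strand +): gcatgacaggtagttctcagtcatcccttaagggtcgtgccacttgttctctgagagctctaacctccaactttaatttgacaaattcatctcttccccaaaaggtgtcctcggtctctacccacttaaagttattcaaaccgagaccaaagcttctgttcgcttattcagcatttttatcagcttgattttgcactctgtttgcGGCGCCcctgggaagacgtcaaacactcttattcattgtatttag
2210011C24Rik (GRCm38.p6 chr8:84011721-84011970, strand -): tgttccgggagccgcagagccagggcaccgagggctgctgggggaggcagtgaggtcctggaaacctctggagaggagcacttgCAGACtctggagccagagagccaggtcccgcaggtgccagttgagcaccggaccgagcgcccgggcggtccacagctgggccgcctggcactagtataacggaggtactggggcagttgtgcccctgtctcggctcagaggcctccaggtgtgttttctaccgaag
Id3 (GRCm38.p6 chr4:136143572-136143821, strand +): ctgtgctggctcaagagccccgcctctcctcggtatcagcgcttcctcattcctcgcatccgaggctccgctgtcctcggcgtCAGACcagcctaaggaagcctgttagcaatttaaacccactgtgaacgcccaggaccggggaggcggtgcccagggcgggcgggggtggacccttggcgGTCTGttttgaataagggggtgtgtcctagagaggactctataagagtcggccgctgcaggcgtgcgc
CAGAC was present on either strand in 42.1% of 27018 promoter windows of the same length and GGCGCC in 9.54%. The windows of Fcer2a held neither, Pax9 held 1 GGCGCC, 2210011C24Rik held 1 CAGAC and Id3 held 2. A match is only a description of the letters, and SMAD4 binding was not measured in these libraries.

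**Figure D2:**
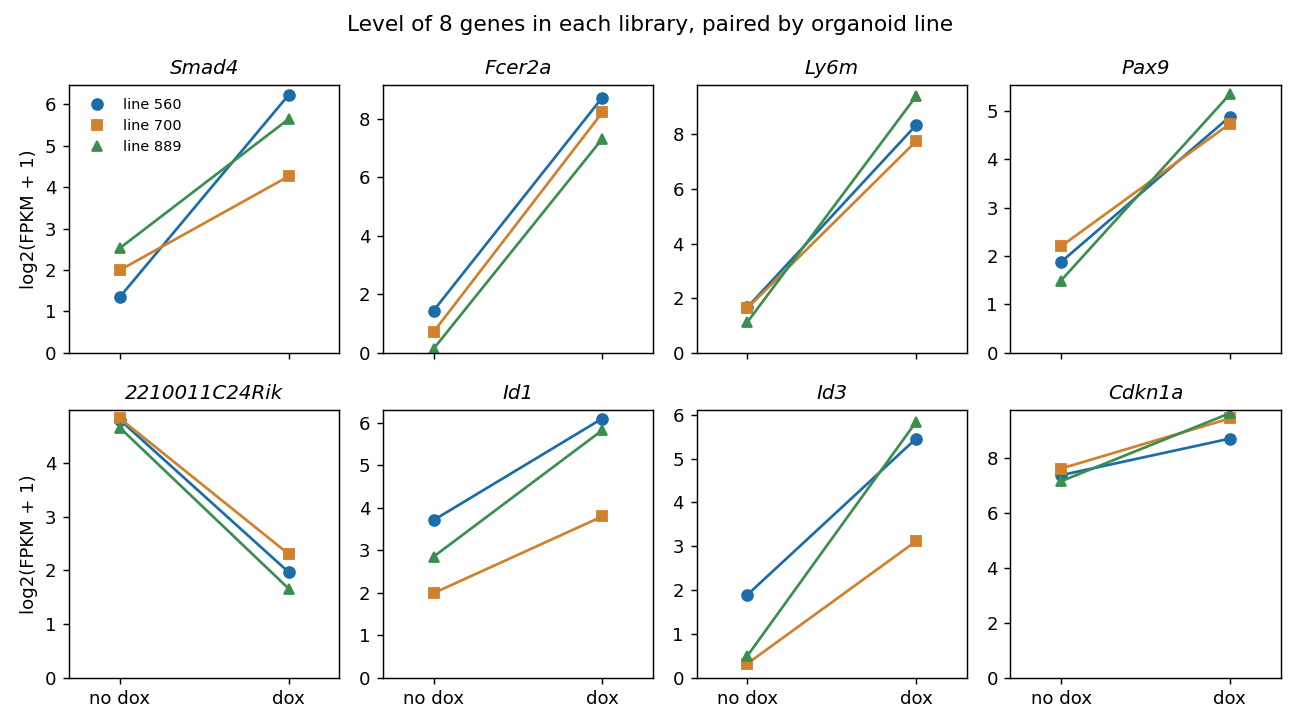
Level in log2(FPKM + 1) on the y axis without and with dox, each line joining the 2 libraries of an organoid line, for Smad4, the 4 genes called by limma and Id1, Id3 and Cdkn1a. The 3 lines climb in parallel for Fcer2a and descend in parallel for 2210011C24Rik, and line 700 has the lowest Smad4, Id1 and Id3 with dox.

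Beyond the called genes, higher and lower below describe 3 pairs and not a passed test. Of 12333 genes, 2290 were higher with dox in all 3 pairs (18.6%) and 2301 were lower in all 3 (18.7%). Each count of list members in all 3 pairs below is to be read beside these shares. A change over 1 in the same direction in every pair was seen for 159 genes (1.29%), 108 higher (0.876%) and 51 lower (0.414%), of which Cks1b and Ube2c were in the cell cycle lists. The 51 held 48 distinct sets of values, since Gm8764, Gm21304, Gm21293 and Gm6763 were identical in every library. The dox and untreated libraries did not overlap for 93 of the 108 and 41 of the 51, beside 7.87% and 7.26% of all genes. Both sets were chosen by changes in these same libraries, so the choice itself favours such separation and the counts are only a description. At the edge of the threshold of 1, Cpeb2 and Ctnnb1 were just inside with a smallest change of 1.00, and Clrn3 and Ell just outside with 1.00 and 0.99. Among the 10768 genes with a length, 135 were past 1 in all pairs as deposited and 151 after centring, and 109 of these were shared.

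Among the leading higher genes, Pcp4, a small calmodulin-binding protein, reached 1240, 38.6 and 2808 FPKM in dox lines 560, 700 and 889 and was at most 3.19 FPKM without dox. Prnd, the prion-like protein doppel, went from 0.824 to 24.8, 5.85 to 448 and 2.35 to 101 FPKM. E-selectin, encoded by Sele and best known from endothelium, was at 0.355, 0.0177 and 0.0166 FPKM without dox and 93.3, 7.12 and 262.8 FPKM with dox. For Pcp4 and Sele the level with dox in line 700 was the lowest by a wide margin, whereas Prnd was highest there. Prl2c3, a placental prolactin family member, had changes of 2.70, 4.01 and 4.32, and its neighbour Prl2c2 of 3.67, 2.12 and 4.15, although reads of such paralogs may be split between them. Serpinb9g, a protease inhibitor, was at most 0.0263 FPKM without dox and 4.90, 25.2 and 7.93 FPKM with dox. Of Pcp4, Prnd, Sele, Prl2c3 and Serpinb9g none passed in limma, where the adjusted p-values were 0.233, 0.290, 0.288, 0.322 and 0.157.

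Among the leading lower genes, Ly6c1 and Ly6a encode abundant Ly6 surface proteins, Ly6a being Sca-1, a marker of fetal-like and regenerating gut epithelium. Ly6c1 went from 2056 to 290.6, 172 to 13.2 and 1210 to 270.5 FPKM in lines 560, 700 and 889. Ly6a went from 3184 to 705, 1625 to 135 and 2119 to 718 FPKM. Sprr1a, a cornified envelope protein, went from 6549 to 1308, 4109 to 203 and 5201 to 1344 FPKM. Pax8, a paired-box factor of thyroid and kidney, was at 11.5, 5.26 and 15.04 FPKM without dox and 2.92, 0.376 and 2.11 FPKM with dox. Lce6a of the cornified envelope cluster had changes of -1.79, -2.21 and -3.29, and S100a7a of -1.774, -1.397 and -1.999. Palm3, which lies 10028 bases from 2210011C24Rik on chromosome 8, went from 4.13 to 0.770, 7.58 to 1.54 and 6.62 to 1.85 FPKM. Mir25 lies within Mcm7, a replication gene with a mean change of -0.82, and reads of the precursor cannot be told from those of its host. Limma adjusted p-values of Ly6c1, Ly6a, Sprr1a, Pax8 and Palm3 were 0.649, 0.454, 0.412, 0.371 and 0.230.

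**Figure D3:**
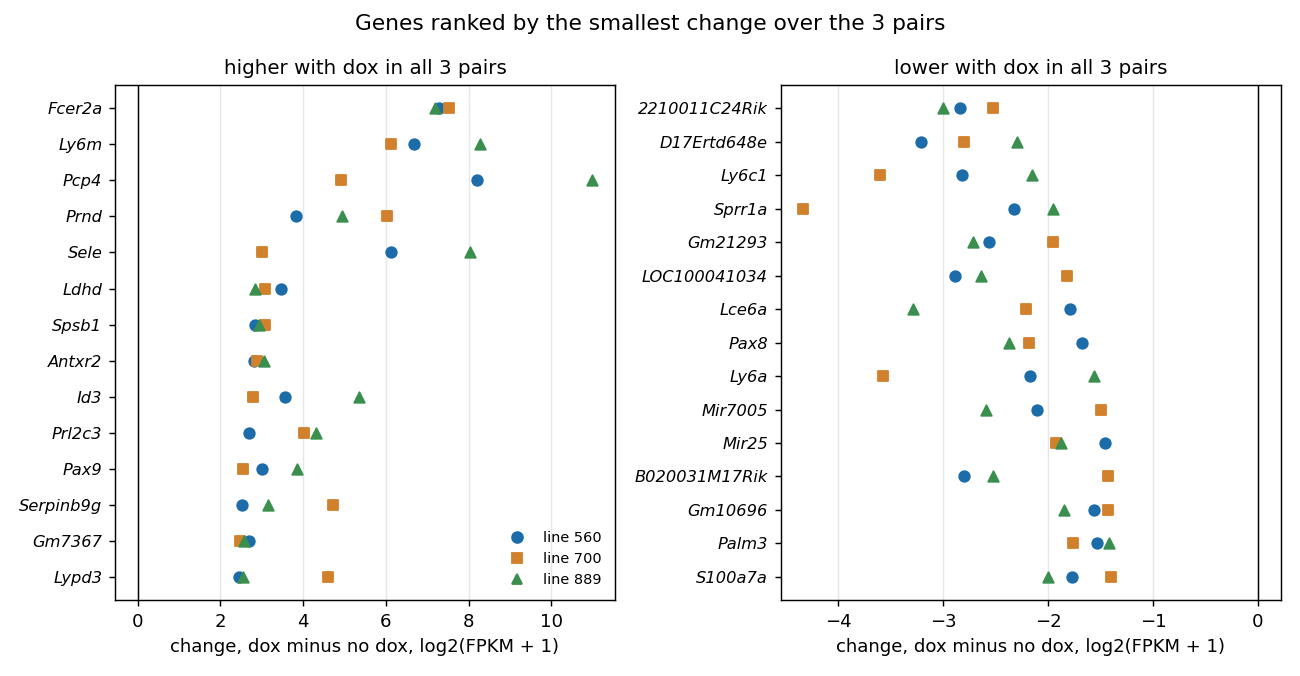
Change in log2(FPKM + 1), dox minus no dox, on the x axis for 14 leading higher genes (left) and 15 leading lower genes (right), ranked by their smallest pair change, outside the cell cycle lists, with 1 point per organoid line. Fcer2a, Spsb1, Antxr2 and 2210011C24Rik have nearly coincident points, while Pcp4 spreads from 4.92 to 10.98 and Sele from 2.996 to 8.02.

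SMAD-responsive regulators were mostly higher. Of 28 tested members 18 were higher in all 3 pairs and 1 was lower, beside 18.6% and 18.7% of all genes, with a median change of 0.71 against 0.01 over all genes. Over lines 700 and 889 alone, 20 were higher and 2 lower in both lines, beside 35.8% of all genes in either direction. Id1 was at 12.1, 2.97 and 6.20 FPKM without dox and 67.7, 12.9 and 55.8 FPKM with dox in lines 560, 700 and 889. Id3 went from 2.71 to 43.0, 0.248 to 7.67 and 0.409 to 56.3 FPKM. Bambi, a decoy receptor, was under the minimum level, and Id2, the third of these inhibitors of helix-loop-helix factors, did not follow them, with changes of 0.57, -0.68 and -1.39. The inhibitory SMADs were higher in every pair, Smad7 by 0.98, 1.31 and 1.18 and Smad6 by 0.66, 0.31 and 1.58. Among regulators of the pathway, Skil had a mean change of 0.91 and Pmepa1 of 0.82, each higher in all 3 pairs. Cdkn2b, a CDK inhibitor known as a TGFβ target, was the member lower in every line, at -0.55, -0.71 and -1.19, whereas Cdkn1a, the CDK inhibitor p21, was higher by 1.33, 1.83 and 2.48. Of these, no gene passed in limma over all genes, with adjusted p-values of 0.485 for Id1, 0.281 for Id3 and 0.157 for Cdkn1a.

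TGFβ family ligands and receptors were less uniform, with 7 of 24 higher in all 3 pairs and 3 lower. The ligand Tgfb1 went from 54.4 to 96.2, 31.0 to 76.1 and 34.5 to 239 FPKM. Bmp1, a protease that processes procollagen, had a mean change of 1.05, and the BMP type II receptor Bmpr2 of 1.82, 0.44 and 0.67. Gdf15, a stress-induced distant member of the family, had changes of -1.19, -0.46 and -1.79.

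Lysosomal genes were higher as a group. Of 59 tested, 32 were higher in all 3 pairs (54.2%) and 1 was lower, and the median changes were 0.18, 0.53 and 0.80 in lines 560, 700 and 889. In lines 700 and 889 together, 49 were higher and 3 lower, where 35.8% of all genes were on either side. Atp6v1a, the catalytic subunit of the proton pump that acidifies the lysosome, went from 14.3 to 64.9, 40.01 to 153 and 37.2 to 116 FPKM. Lamp2, a structural membrane protein, went from 80.8 to 215, 74.3 to 218 and 86.4 to 331 FPKM, with no overlap between the arms. Hexa, a subunit of β-hexosaminidase, had changes of 0.87, 2.61 and 2.31. The aspartic protease Ctse (cathepsin E), which is also a gastric gene, had changes of 3.82, 1.49 and 4.51.

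Genes of ER folding and the secretory pathway shared the direction with smaller changes. Of 82 tested, 36 were higher in all 3 pairs (43.9%) and 5 lower, and the median change was 0.26. Dnajb9, an ER-resident co-chaperone, went from 11.2 to 33.3, 15.3 to 34.5 and 23.1 to 77.1 FPKM. Dnajc3, another ER co-chaperone, had changes of 0.92, 0.92 and 1.09, and Creb3l2, a membrane-bound transcription factor of secretory cells, of 2.26, 0.65 and 1.37. Galnt6, which starts mucin-type O-glycans, had changes of 0.64, 1.82 and 1.10. In the goblet cell list 1 of 32 was higher and 2 were lower in all pairs, where Tspan13 had changes of 0.60, 0.25 and 2.34, Bcas1 of -1.02, -1.24 and -0.14 and the O-glycosylation enzyme Galnt12 of -0.06, -0.09 and -0.32 (0.12 in line 560 after centring by transcript length). In the Paneth and antimicrobial list 1 of 30 was higher in all 3 pairs and 0 lower, and this was Dmbt1, which was at 0.0080 and 0.0092 FPKM in line 700. After centring by transcript length 7 of 26 were higher in all 3 pairs (all genes 21.6%) and 0 lower, but 5 of the 7 (Defa3, Defa5, Defa20, Defa21 and Defa22) were listed at 0 in both libraries of at least 1 line, where centring alone gives the sign.

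Genes of the integrated stress response, which supplies amino acids and charged tRNAs, went the other way. Of 48 tested, 20 were lower in all 3 pairs (41.7%) and 2 higher, with a median change of -0.24. Shmt2, a mitochondrial enzyme of serine and folate metabolism, went from 156 to 70.9, 94.7 to 60.6 and 121 to 73.6 FPKM. Wars, the tryptophanyl-tRNA synthetase, had changes of -0.70, -0.88 and -0.60, and the amino acid carrier Slc7a5 of -0.73, -0.58 and -0.76. Stc2, a secreted glycoprotein, had changes of -0.70, -1.13 and -0.58. The limma adjusted p of Slc7a5 was 0.530 without the line block, a fit that does not use the pairs, and 0.250 with it.

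MYC targets and ribosome biogenesis genes were lower as a group. Of 117 tested, 66 were lower in all 3 pairs (56.4%) and 6 higher, and the median change was -0.40, -0.25 and -0.22 in lines 560, 700 and 889. Centring by transcript length left 72 of 115 lower and 8 higher (all genes 22.1% and 21.6%). Paics, an enzyme of purine synthesis, went from 90.8 to 49.9, 75.2 to 47.8 and 75.0 to 48.6 FPKM. Myc itself had changes of -0.01, -0.29 and -0.56. Mxd1, a MAX partner that opposes MYC, went from 7.05 to 14.3, 6.81 to 23.1 and 5.07 to 12.5 FPKM. The 2 members past 1 in all pairs were both higher, and these were Odc1, the first enzyme of polyamine synthesis, at 1.27, 3.64 and 2.10, and Ncbp1, a cap-binding protein, at 1.01, 1.78 and 1.32. The cell cycle lists were also lower, with 58 of 89 G1/S genes and 85 of 118 G2/M genes lower in all 3 pairs and medians of -0.54 and -0.81.

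**Figure D4:**
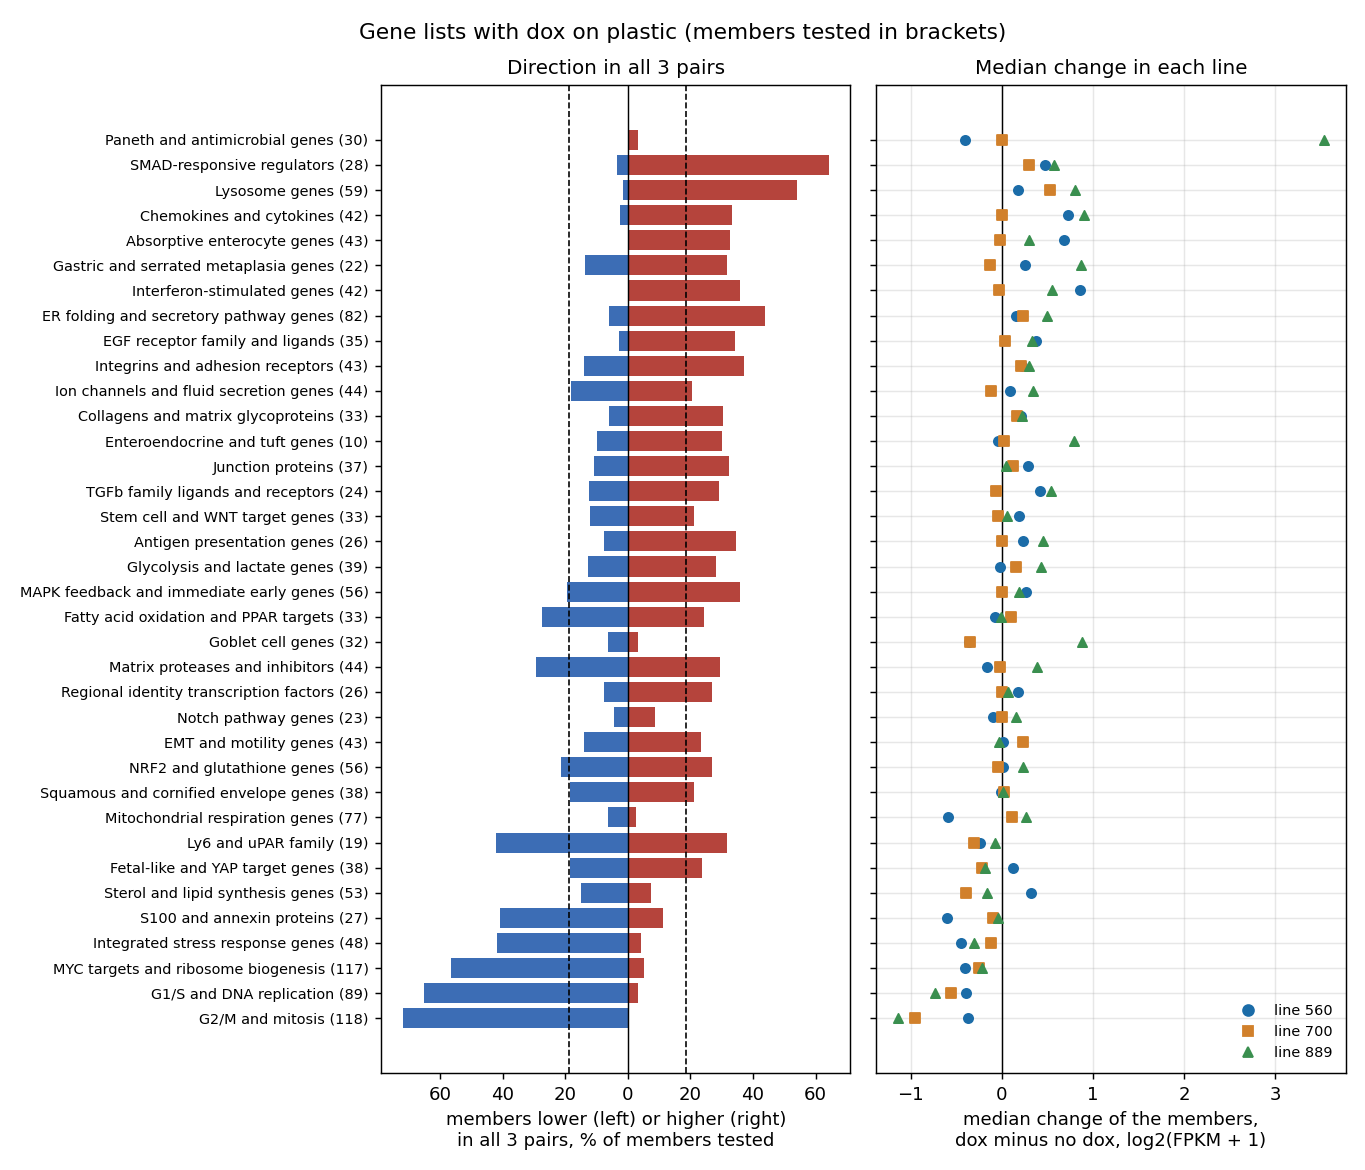
Left, the share of tested members of each gene list that were higher (right of 0) or lower (left of 0) with dox in all 3 pairs, in percent, with dashed lines at the shares of all genes tested (18.6% and 18.7%). Right, the median change of the members in each organoid line, in log2(FPKM + 1), where the Paneth list sits at 3.53 in line 889 and at or under 0 in the others.

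The Ly6 and uPAR family was split. Of 19 tested, 6 were higher and 8 lower in all 3 pairs, with 3 on either side past 1. Ly6m, Lypd3 and 2210407C18Rik were the higher ones. Lypd3, a surface protein of squamous epithelium, went from 3.25 to 22.3, 0.886 to 44.9 and 6.10 to 40.5 FPKM. 2210407C18Rik went from 50.8 to 191, 1.11 to 12.5 and 0.196 to 8.80 FPKM, and its untreated level in line 560 lay above the dox level of the other lines. Ly6c1, Ly6a and Ly6g were the lower ones, with Ly6g at -1.19, -1.68 and -1.46. Ly6a and Ly6c1 lie 47.4 kb apart on chromosome 15.

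Squamous and cornified envelope genes did not lean to either side, with 8 of 38 higher and 7 lower in all 3 pairs. Serpinb2, the plasminogen activator inhibitor PAI-2, was at 42.96, 34.05 and 136 FPKM without dox and 8.90, 12.7 and 31.2 FPKM with dox, and the peptidase Klk6 had changes of -2.12, -1.12 and -1.38. Among S100 and annexin proteins 11 of 27 were lower in all 3 pairs and 3 higher, with a median change of -0.22. Over lines 700 and 889 alone 12 were lower and 8 higher (all genes 35.8% each). After centring by transcript length 10 of 26 were lower and 6 higher (all genes 22.1% and 21.6%), with a median of -0.02. S100a4, often linked to motility, went from 10.7 to 2.63, 13.1 to 5.91 and 19.7 to 8.84 FPKM. S100a7a went from 151 to 43.5, 185 to 69.7 and 200.2 to 49.3 FPKM, with a wide gap between the arms (limma adjusted p 0.149). Anxa6 had a mean change of -1.07 and Anxa13, a gut annexin, of 0.93.

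Gastric genes of serrated metaplasia held 7 of 22 members higher and 3 lower in all 3 pairs (all genes 18.6% and 18.7%). Their median changes were 0.26, -0.13 and 0.87 in lines 560, 700 and 889. Over lines 700 and 889 alone 8 were higher and 6 lower (all genes 35.8% each). Of the 22 members, 4 were past 1 in all 3 pairs. Beside Pax9 these were Onecut2, Ctse and Muc13. Onecut2, a homeobox factor of endoderm, went from 0.426 to 4.02, 0.714 to 6.53 and 0.236 to 12.8 FPKM. Ctse went from 4.36 to 74.6, 52.4 to 149 and 4.76 to 131 FPKM. Muc13, a transmembrane mucin, went from 34.3 to 401, 1.60 to 4.96 and 1.86 to 28.1 FPKM, so that its untreated level in line 560 exceeded both dox levels of the others. Regional identity factors held 7 of 26 higher and 2 lower. Gata6, a factor of proximal gut endoderm, had changes of 2.66, 0.51 and 3.08, and Meis1 of -0.35, -0.63 and -0.91.

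In the absorptive enterocyte list 14 of 43 were higher in all 3 pairs and 0 lower, but the lines differed, with medians of 0.68, -0.02 and 0.30. Over lines 700 and 889 alone 19 were higher and 6 lower (all genes 35.8% each). After centring by transcript length 11 of 42 were higher and 0 lower in all 3 pairs (all genes 21.6% and 22.1%). Pck1, an enzyme of gluconeogenesis, went from 0.527 to 175, 0.0592 to 0.709 and 0.0185 to 43.1 FPKM. Apob of lipid export was at 0.262, 256 and 0.917 FPKM without dox, a difference between lines far above its change. Krt20, a keratin of mature cells, had changes of 2.86, 0.57 and 0.52. Enteroendocrine and tuft genes were mostly too low to test, and of 10 tested 3 were higher and 1 lower. Cpe, a carboxypeptidase that matures peptide hormones, went from 29.6 to 232, 44.2 to 141 and 73.7 to 442 FPKM. Insm1 had changes of 1.88, 0.16 and 3.62 and Hpgds of 2.97, 0.33 and 3.82. Ltc4s of leukotriene synthesis was lower at 5.24, 6.21 and 12.0 FPKM with dox against 33.1, 18.5 and 27.7 FPKM without.

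Stem cell and WNT target genes were near the share of all genes, with 7 of 33 higher and 4 lower. Ctnnb1, which encodes β-catenin, went from 149 to 859, 286 to 574 and 278 to 1205 FPKM. Cd44 had changes of 0.74, 2.17 and 1.21, Hopx of 0.27, 2.38 and 1.46, and Cdk6 of -0.30, -0.60 and -0.87. The fetal-like and YAP target list held 9 of 38 higher and 7 lower. Ptgs2, the inducible cyclooxygenase, went from 8.17 to 118, 56.6 to 135 and 97.1 to 398 FPKM, while Ly6a of the same list was among the leading lower genes. Hbegf had a mean change of 1.24 and Il33 of 1.25 with all pairs higher. In the Notch list 2 of 23 were higher and 1 lower, where Numbl had changes of 0.21, 2.14 and 1.14, Numb of 0.75, 0.16 and 0.02 and Notch3 of -0.47, -0.55 and -0.23. After centring by transcript length 3 Notch genes were higher and 2 lower, and Numbl (-0.56 in line 560) and Notch3 (0.07 in line 889) no longer had 1 sign.

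Of 43 integrins and adhesion receptors 16 were higher in all 3 pairs and 6 lower. The heparan sulfate carrier Sdc3 had changes of 1.24, 1.38 and 2.56, and Cdh13, a lipid-anchored cadherin, of 0.46, 0.88 and 1.17. Bcam, a receptor for laminin, went from 118 to 43.8, 354 to 156 and 110 to 48.5 FPKM. Collagens and matrix glycoproteins held 10 of 33 higher and 2 lower. Here the laminin chains Lama3 and Lamb3 had changes of 0.93 and 0.69, the crosslinking enzyme Loxl4 of 0.71, 2.40 and 0.71 and P4ha1, a collagen prolyl hydroxylase, of 0.56, 0.86 and 2.22. Junction proteins held 12 of 37 higher and 4 lower, with F11r at 0.77, 0.32 and 0.56, Gjb5 at 0.31, 0.98 and 0.85 and Cldn9 at -0.41, -0.31 and -1.01.

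Matrix proteases and their inhibitors split evenly, 13 of 44 higher and 13 lower. The serine protease Prss23 went from 3.72 to 12.5, 1.69 to 15.4 and 6.42 to 20.4 FPKM. The collagenase Mmp13 was at most 0.544 FPKM without dox and 2.87, 2.86 and 25.6 FPKM with dox. In the list of EMT and motility genes 10 of 43 were higher and 6 lower. Zeb1, a repressor of epithelial genes, was low, at most 0.235 FPKM without dox and 1.19, 2.24 and 3.37 FPKM with dox, with arms that did not overlap. Fscn1, an actin bundler, had changes of -1.17, -0.88 and -0.95, and Krt19, a simple keratin, went from 5718 to 3061, 4188 to 1633 and 3956 to 2645 FPKM.

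Of 56 MAPK feedback and immediate early genes tested, 20 were higher and 11 lower in all 3 pairs. Fos went from 14.7 to 45.9, 37.5 to 156 and 17.9 to 58.4 FPKM. Dusp5, a nuclear ERK phosphatase, had changes of 1.32, 2.09 and 0.92, whereas Dusp1, another MAP kinase phosphatase, went from 39.9 to 14.8, 54.4 to 13.6 and 108 to 28.0 FPKM. Gadd45b had changes of -1.154, -1.095 and -1.004. EGF receptor family genes and other growth factor ligands held 12 of 35 higher and 1 lower. Pdgfc went from 0.875 to 3.35, 0.505 to 2.69 and 0.582 to 3.44 FPKM, with arms well apart, and Vegfa had changes of 0.92, 0.59 and 1.48.

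Cytokine and interferon genes were higher in part. Of 42 chemokines and cytokines 14 were higher in all 3 pairs and 1 lower, with medians of 0.72, 0.01 and 0.90 in lines 560, 700 and 889. Il1a, an alarmin, went from 14.8 to 343, 85.5 to 454 and 43.7 to 1270 FPKM. The receptor chain Il13ra1 went from 7.82 to 20.8, 8.86 to 21.3 and 5.74 to 25.6 FPKM, and the growth factor Csf2 had changes of 0.85, 0.94 and 1.15. Interferon-stimulated genes held 15 of 42 higher and 0 lower, with medians of 0.86, -0.03 and 0.55. Over lines 700 and 889 alone 17 of them were higher and 9 lower (all genes 35.8% each). Irf7, which amplifies the interferon response, went from 17.9 to 58.5, 4.27 to 19.4 and 4.60 to 40.6 FPKM. Oasl1 had changes of 0.71, 1.76 and 1.93, Rsad2 of 2.11, 0.46 and 2.49, and Stat3 of 0.57, 0.49 and 0.43, of which Stat3 had -0.01 in line 560 after centring by transcript length. Antigen presentation genes held 9 of 26 higher and 2 lower, where B2m, the light chain of MHC class I, went from 664 to 1292, 537 to 1194 and 577 to 1804 FPKM. Tapbp had a mean change of 0.94, H2-K1 of 0.85 and Raet1e of -0.79.

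Of genes that act in cell death and arrest, the inflammatory caspases Casp4 and Casp1, which lie 1.56 kb apart on chromosome 9, had changes of 1.54, 1.53 and 2.98 and of 1.08, 1.27 and 1.45. Cdkn1a went from 167 to 422, 197 to 704 and 143 to 804 FPKM, with no overlap between the arms.

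Metabolic lists were mixed. NRF2 and glutathione genes held 15 of 56 higher and 12 lower. Gstm5, a glutathione transferase, went from 35.4 to 193, 11.7 to 267 and 8.41 to 145 FPKM, while the epoxide hydrolase Ephx1 went from 99.0 to 45.2, 76.6 to 26.4 and 80.2 to 14.9 FPKM and the NADPH enzyme G6pdx had changes of -0.96, -0.93 and -0.90. Abcc4 had a mean change of 1.05. In the glycolysis and lactate list, which holds Ldhd, 11 of 39 were higher and 5 lower, and Adm had changes of 0.89, 0.69 and 3.87. Sterol and lipid synthesis genes held 4 of 53 higher and 8 lower, 8 and 27 over lines 700 and 889 (all genes 35.8% each), and 4 and 17 of 51 after centring by transcript length (all genes 21.6% and 22.1%). Hsd17b7 of cholesterol synthesis went from 4.38 to 19.8, 19.5 to 164 and 15.5 to 53.3 FPKM, Acss2 had a mean change of 1.32, and the early enzymes Mvk and Acat2 of -0.70 and -0.67. Fatty acid oxidation and PPAR targets held 8 of 33 higher and 9 lower. Angptl4, a secreted lipase inhibitor, went from 13.9 to 90.3, 29.5 to 163 and 18.3 to 196 FPKM, Pparg had a mean change of 0.97 and Pex11a of 0.67.

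Mitochondrial respiration genes differed between lines. In line 560 their median change was -0.59, in line 700 0.11 and in line 889 0.26, so 2 of 77 were higher and 5 lower in all 3 pairs, while 55 were higher and 8 lower in lines 700 and 889 together (all genes 35.8% each). Their median transcript length was 971 bases, against 3014 over all genes with a length, and after centring by length 14 were higher and 8 lower, with a median change of 0.00. Ndufa10 had changes of -0.47, -0.38 and -0.42 and Ndufa5 of -0.58, -0.19 and -0.19, and Ndufa5 had 0.07 in line 560 after centring. Ndufs5 was at 78.9 FPKM in untreated line 700 and at most 0.258 FPKM in the other untreated lines.

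After centring by length, 21.6% of all genes were higher and 22.1% lower in all 3 pairs. Beside these shares, centring gave 13 higher and 10 lower of 43 EMT and motility genes, 17 and 7 of 55 MAPK genes, 14 and 4 of 35 EGF receptor family genes, 10 and 4 of 33 collagen and matrix genes, 8 and 5 of 24 TGFβ family genes, 18 and 8 of 56 NRF2 and glutathione genes, 12 and 2 of 38 glycolysis genes and 11 and 6 of 33 fatty acid oxidation genes. It also gave 13 and 6 of 39 integrin and adhesion genes, 12 and 5 of 36 junction genes and 8 and 2 of 21 gastric genes. The Ly6 and uPAR family held 6 and 7 of 17, ER and secretory genes 37 and 4 of 82 and integrated stress response genes 4 and 20 of 48. Chemokines and cytokines held 13 and 1 of 41, interferon-stimulated genes 13 and 2 of 41 and antigen presentation genes 7 and 0 of 23.

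Ion channel and fluid secretion genes held 9 of 44 higher and 8 lower. Slc9a2, an apical sodium-proton exchanger, went from 10.1 to 36.8, 24.8 to 74.0 and 18.6 to 38.7 FPKM. The epithelial sodium channel subunit Scnn1a had changes of -0.75, -0.88 and -1.82 and the sodium pump subunit Atp1b1 of 1.09, 0.85 and 0.73.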

How the data were processed

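Gene expression was measured by RNA-Seq of total RNA in 12 libraries, of which the 6 from organoids on plastic were used. Groups and line numbers came from the sample titles and treatment labels. The submitters' processing notes name kallisto, DESeq2 and mm9, and their versions are not given in the sources used here. The authors deposited 1 table of FPKM for the plastic libraries, and further scaling by median ratios left it nearly unchanged. The authors also deposited tables of their own comparison (mean normalized counts, fold changes and p-values), and a separate table for organoids in basement membrane extract, neither of which was used.

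Genes with a mean of at least 0.5 FPKM over the 6 libraries were kept, and log2(FPKM + 1) was compared between 3 dox and 3 untreated libraries with limma 3.58.1 in R 4.3.3 (lmFit, then eBayes with trend, two-sided, Benjamini-Hochberg adjustment over 12333 genes) without a block. Called genes had an adjusted p under 0.05 and a change over 1. The line numbers pair the samples, since the deviations of same-line libraries from their arm means correlated at 0.46, 0.61 and 0.25 in lines 560, 700 and 889, so blocked values are printed where they change a call. Depth was estimated from the steps between low FPKM values, and covers scaled reads only.

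Named genes were Smad4, Fcer2a, Ly6m and Pax9, all genes called with or without the block, the 15 largest rises and 15 falls of one sign in all 3 pairs outside the cell cycle lists (ranked by the smallest pair change, genes of identical values counted once), up to 4 members of each function list that shared a sign in all 3 pairs, and 9 SMAD readouts. Myc, Mcm7, Prl2c2, Ly6g, Cdkn2b, Cks1b, Ube2c, Cd68, Mcpt1, 5 Defa genes, the genes at the threshold and the genes of the last section were added after their values were seen. Acta1, Havcr2, Mcpt2, Prf1 and Tigit were added in the same way. The members and the 37 gene lists, written by hand, were chosen with earlier results of these data known. Another 4 lists marked cell types. Some of these genes and 1 of these lists are not reported here. Gene positions are from GENCODE on NCBIM37 (mm9) and transcript length is that of the longest annotated transcript. Promoters came from RefSeq, which matched 106 of 146 named genes. Alternatives were a pseudocount of 0.1, other filters on low values, median-ratio scaling, the block, no trend and leaving out each library, and, added after seeing the data, equal total FPKM and centring by transcript length.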

Additional observations from a re-analysis of the deposited data

How the results depend on the processing

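The number of genes called with dox on plastic was 10 with a pseudocount of 0.1, 0 with no filter on low values (where 383 had p under 0.05 before adjustment), 7 with a replicate block and 1 after centring by transcript length. Leaving out 1 library gave 0 to 55 calls. There were 55 without dox line 700, 2 without dox line 889, and 0 after removal of dox line 560 or of untreated line 560, 700 or 889, where 364 to 623 genes had p under 0.05 before adjustment. The cause was not tested. Median-ratio scaling, a minimum of 5 FPKM, eBayes without trend and equal total FPKM gave 4, 5, 4 and 5 calls. The number of genes past 1 in all 3 pairs was 311 with a pseudocount of 0.1, and 233 to 469 over the lines that remained when 1 was left out (469 without line 560, 423 without line 700). Equal total FPKM moved the median of all genes by 0.33, -0.16 and -0.17 in lines 560, 700 and 889. The block changed no other call among the named genes than those given beside them. Without 1 library, some named genes that had not passed turned sign: the change of Galnt12 ran from -0.65 to 0.30, the change of Apob from -0.97 to 3.67, the change of Numb from -0.024 to 0.49, the change of Ndufs5 from -1.68 to 2.34 and the change of Id2 from -1.06 to 0.10. With 1 pair per line, differences between lines could not be tested.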

Other observations

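Genes known from the state of the 2-cell mouse embryo were higher without dox. These genes were picked after their values were seen, and many belong to families of near-identical copies whose reads may be split, so they are given as values with no test. Among 26 genes above 0 in any library (the Zscan4, Tcstv, Tdpoz, Usp17l and Pramef families, Zfp352, Gm8764, B020031M17Rik and AA792892), 23 were higher without dox in all 3 lines, and 18 were listed at 0 in all 3 dox libraries. Their summed level was 34.8, 19.8 and 41.2 FPKM in untreated lines 560, 700 and 889 and 4.45, 4.03 and 5.70 FPKM with dox. Most of the sum with dox was Pramef8, which did not share the pattern, at 3.88, 3.45 and 4.60 FPKM with dox and 3.11, 3.77 and 3.87 FPKM without. Tcstv3 was at 3.24, 1.60 and 4.93 FPKM without dox and listed at 0 with dox in every line. Zscan4f was at 2.58, 1.09 and 3.51 FPKM without dox and at most 0.146 FPKM with dox. Levels this low rest on few reads.

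Other differences were not shared by the 3 lines, and each line is 1 pair of libraries. Genes of Paneth cells, the antimicrobial cells of the small intestinal crypt, appeared with dox in line 889, where Defa17 was listed at 0 without dox and reached 77.2 FPKM, and Ang4 was listed at 0 and reached 31.7 FPKM. In line 560 Ang4 was lower with dox, from 52.1 to 11.3 FPKM, and in line 700 Defa17 was listed at 0 in both libraries. The goblet mucin Muc2 was at 0.120 and 5.12 FPKM in line 889 without and with dox, and at 63.1 and 25.9 FPKM in line 560. In line 560 Car1, a carbonic anhydrase, was at 6.86 FPKM without and 344 FPKM with dox and Cyp2c55, a cytochrome P450, at 0.485 and 36.0 FPKM, and both stayed under 0.1 FPKM in lines 700 and 889. The chemokines Cxcl1, Cxcl2, Cxcl5 and Ccl20 had changes of 4.20, 3.11, 3.10 and 5.02 in line 560 and of 4.35, 3.87, 3.23 and 6.50 in line 889, against 0.76, 0.24, -0.88 and -2.35 in line 700. These genes were also chosen after their values were seen.

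A few further genes past 1 in all pairs, again chosen by their values, encode signalling proteins. Socs3, a feedback inhibitor of cytokine receptors, went from 4.94 to 26.4, 4.73 to 48.0 and 1.97 to 53.8 FPKM in lines 560, 700 and 889. Sstr2, a somatostatin receptor, went from 1.93 to 40.3, 0.0836 to 1.90 and 0.0393 to 55.5 FPKM, and Nppb, a natriuretic peptide, from 1.08 to 7.36, 1.54 to 19.7 and 0.689 to 25.6 FPKM. Hmga2, a chromatin protein of fetal tissue, went from 6.15 to 19.0, 1.60 to 31.1 and 7.96 to 82.9 FPKM. The dox level of Sstr2 in line 700 lay below its untreated level in line 560.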
